A study of Mus musculus with 5 samples.

Results

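The T cell receptor alpha chain is built by joining 1 of many TRAV (variable) genes to 1 of many TRAJ (joining) genes, and the members described here are the TRAV and TRAJ genes used by T cells of the lymph nodes that drain the mouse heart. They were taken from every productive TRA contig, meaning an assembled alpha chain transcript with an open reading frame, keeping for each cell barcode the contig with the most unique molecular identifiers (UMIs). This gave 7428 cells of the 9473 barcodes in the receptor data, in 5931 clonotypes, the groups of cells to which the deposited files assign the same receptor. The cells used 90 of the 128 TRAV genes and 43 of the 60 TRAJ genes annotated on mouse chromosome 14 (GRCm38, GENCODE M21). All are C57BL/6 T cells sorted from mediastinal lymph nodes as CD44-high, the antigen-experienced fraction, and pooled from mice aged 2, 6, 12 and 18 months. Conditions were stained with 8 different hashtag antibodies before pooling, but which age each antibody marked is not stated in the labels, and the 8 hashtag samples are described without being set against each other as ages. CD8 cells, which had UMIs of Cd8a or Cd8b1 in excess of Cd4, were set against CD4 cells, which had the reverse. Productive chains were set against unproductive chains of the same receptor library, matched by hashtag sample and not by cell.

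In the thymus, the alpha chain locus rearranges after the beta chain, and a first join between a TRAV gene near the TRAJ cluster and a TRAJ gene near the TRAV cluster can be replaced by joins that reach outward on both sides. A thymocyte whose receptor binds MHC class I becomes a CD8 cell, and one whose receptor binds MHC class II becomes a CD4 cell. Much of the TRAV region is duplicated in C57BL/6 mice, and copies carry the letter D or N in their names. Genes whose name holds DV can also serve the delta chain of gamma delta T cells. A pair of joins is nearly invariant in the mouse: TRAV11 with TRAJ18 makes the chain of invariant natural killer T cells, which see lipid on CD1d, and TRAV1 with TRAJ33 makes that of mucosal-associated invariant T cells, which see vitamin B metabolites on MR1.

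The sequences below show what a V gene and a J gene bring to the join. For each V gene the last 45 bases are given 5′ to 3′ with the codon of the cysteine that opens the third complementarity-determining region (CDR3) in capitals, and for each J gene the whole segment is given with the phenylalanine codon that closes the CDR3 in capitals. In the main test TRAV12D-3, TRAV16N and the J genes TRAJ22, TRAJ26 and TRAJ45 had a higher share of CD8 than of CD4 clonotypes. TRAV4D-4, TRAV6N-7, TRAJ31, TRAJ37 and TRAJ17 had a lower one. The calls of TRAV6N-7, TRAJ26, TRAJ45 and TRAJ17 were not made under every alternative tried. TRAV6N-7 is identical to TRAV6D-7 over the 200 bases compared, so its position rests on the name given. TRAV11 and TRAJ18 make the invariant chain. All lie on the plus strand.
TRAV12D-3 (chr14:52929789-52930282): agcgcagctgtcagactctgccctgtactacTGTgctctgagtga
TRAV16N (chr14:53351028-53351621): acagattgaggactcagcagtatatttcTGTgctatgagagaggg
TRAV4D-4 (chr14:52990866-52991389): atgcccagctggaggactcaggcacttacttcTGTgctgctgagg
TRAV6N-7 (chr14:53318798-53319284): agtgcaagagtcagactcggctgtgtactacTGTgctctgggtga
TRAV11 (chr14:53519303-53519859): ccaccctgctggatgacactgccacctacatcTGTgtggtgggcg
TRAJ22 (chr14:54197248-54197307): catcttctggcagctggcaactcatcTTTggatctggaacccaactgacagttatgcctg
TRAJ26 (chr14:54194490-54194549): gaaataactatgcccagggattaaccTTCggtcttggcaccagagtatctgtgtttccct
TRAJ45 (chr14:54172828-54172890): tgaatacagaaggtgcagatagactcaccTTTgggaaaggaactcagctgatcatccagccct
TRAJ31 (chr14:54187895-54187951): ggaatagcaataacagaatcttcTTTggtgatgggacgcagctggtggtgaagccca
TRAJ37 (chr14:54181518-54181577): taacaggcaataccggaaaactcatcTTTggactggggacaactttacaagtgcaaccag
TRAJ17 (chr14:54201775-54201837): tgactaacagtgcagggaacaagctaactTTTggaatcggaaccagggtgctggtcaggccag
TRAJ18 (chr14:54200777-54200842): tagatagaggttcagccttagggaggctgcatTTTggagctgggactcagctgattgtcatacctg

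The chain chosen for a cell rested on a median of 3 UMIs (range 1 to 45), and 14.8% of the chosen contigs had 1 UMI. Of the 7428 cells, 7058 were also in the gene matrix, where 99.7% had a UMI of at least 1 T cell marker and 94.2% had Cd3e, the epsilon chain of the receptor complex. Cd44, which encodes the sorted surface protein, had a UMI in 25.9% of them. The B cell gene Cd79a had a UMI in 4.90% and Trdc, the delta chain constant gene, in 0.510%. A hashtag was called in 5933 cells, with 476 to 1227 cells and 450 to 826 clonotypes per hashtag sample. A lineage could be called as well in 4352 of these, 2662 CD8 and 1690 CD4 cells. The CD8 cells had a median of 5173 gene UMIs and the CD4 cells 3772.5, against 2476 in cells with a hashtag and no lineage call. Foxp3, the regulatory T cell factor, had a UMI in 3.94% of CD8 and 21.7% of CD4 cells.

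Use was spread over many genes. The 8 most used TRAV genes made up 24.2% of clonotypes, and the 8 most used TRAJ genes 34.5%. No annotated pseudogene was used, while 19 TRAV and 8 TRAJ genes annotated as functional were in no clonotype. Except for TRAV23, these TRAV genes are D or N copies. Their reads may carry the name of another copy, or the copy may be missing from the unnamed receptor reference. Neither was tested. TRAV12D-3 led the V genes with 210 clonotypes or 3.54% (exact 95% interval 3.08 to 4.04%). TRAV7D-2 followed at 3.37%, and TRAV6-6, TRAV12-2, TRAV3D-3, TRAV16N, TRAV13-1 and TRAV6N-7 held 3.0% to 2.51%. The intervals of these neighbours overlap, so their order is not resolved. Over hashtag samples the TRAV12D-3 share ran between 2.17% (Hashtag8) and 4.40% (Hashtag4), with a median of 3.75%.

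TRAJ22 was the most used J gene, with 387 clonotypes or 6.53% (5.91 to 7.18%), and its interval lay above that of TRAJ23, the next at 5.04% (4.50 to 5.63%). TRAJ31 with 4.55%, TRAJ26 with 4.28%, TRAJ12 with 3.78%, TRAJ37 with 3.54%, TRAJ30 with 3.52% and TRAJ49 with 3.29% came after. Of these 8 genes, 5 lie side by side or nearly so in the middle of the J cluster, at orders 31 to 40 of 60 counted from the TRAV side. In every hashtag sample TRAJ22 had between 5.33% and 7.33% of clonotypes.

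**Figure D1:**
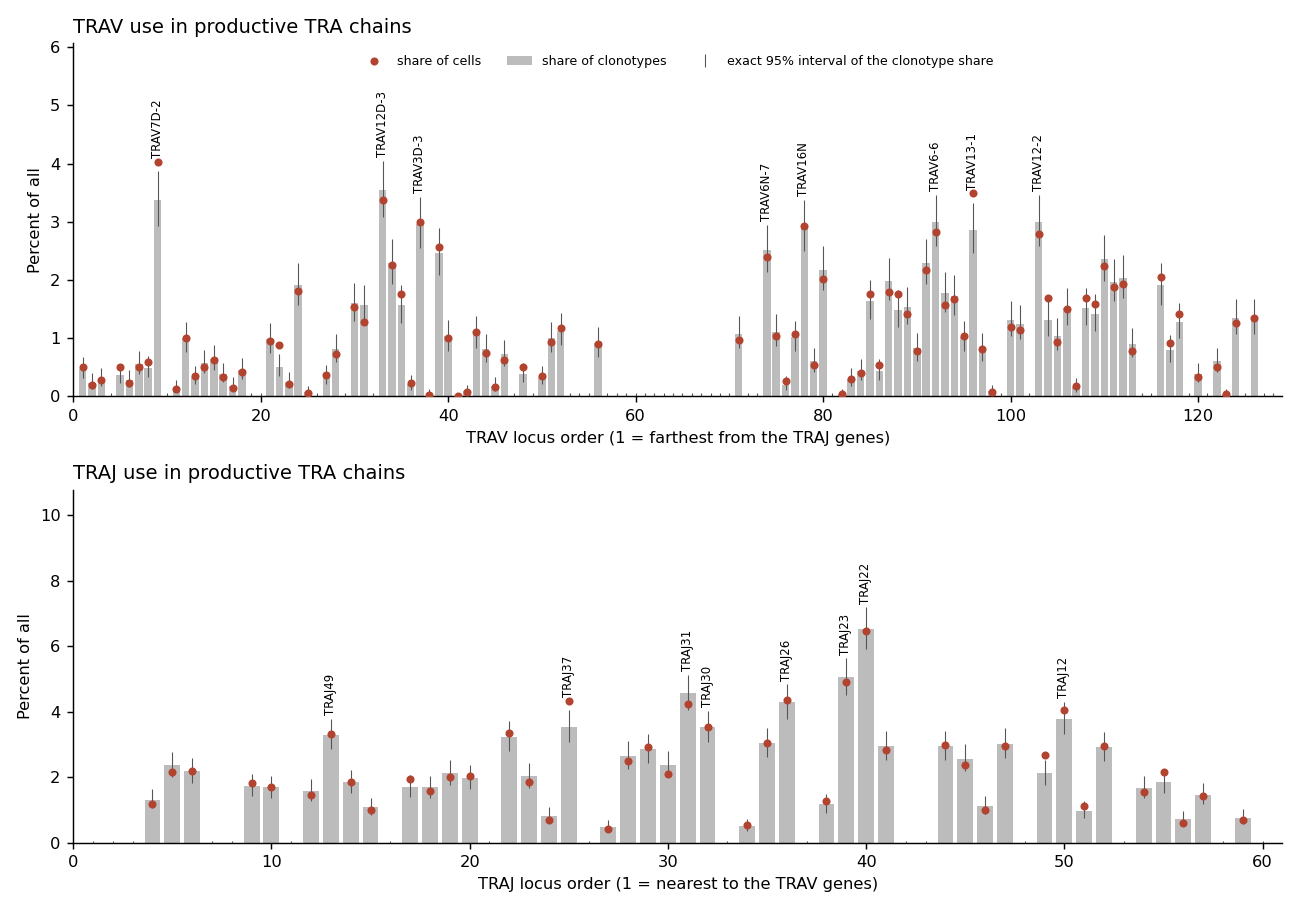
Share of clonotypes (grey bars, with exact 95% intervals) and of cells (red points) using each TRAV gene (top) and TRAJ gene (bottom), in percent of all, by order along the locus. The 8 most used genes of each kind are named: TRAV12D-3 at 3.54% and TRAJ22 at 6.53% of clonotypes stand highest, and most red points lie within the intervals.

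Of the 5931 clonotypes, 5244 had 1 cell. Among genes with at least 20 clonotypes, 68 of 72 TRAV and 42 of 43 TRAJ genes had a cell share within 0.8 to 1.25 times their clonotype share. TRAV12D-1 had the highest ratio, with 0.889% of cells and 0.506% of clonotypes (ratio 1.76), and 1 clonotype of 23 cells made up 34.8% of its cells. TRAV5-1 (ratio 1.38), TRAV7N-4 (1.32) and TRAV12-3 (1.29) came next, each with a largest clonotype that held 31.6%, 26.3% and 20.5% of the gene's cells. Among J genes the ratio was 1.25 for TRAJ13, 1.22 for TRAJ37, 1.17 for TRAJ6 and 1.14 for TRAJ11. The 2 largest clonotypes that bear on these figures had 56 cells (counted under both TRAJ37 and TRAV7D-2) and 34 cells (under both TRAJ13 and TRAV13-1).

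Between hashtag samples the shares that varied most were those of the invariant chain. TRAV11 had 0.363% of clonotypes in Hashtag7, a median of 1.61% and 5.68% in Hashtag4. TRAJ18 had 1.09% in Hashtag7, a median of 2.49% and 6.78% in Hashtag4. Other wide ranges were 1.28% (Hashtag4) to 4.12% (Hashtag5) for TRAV10, 0.726% (Hashtag7) to 2.89% (Hashtag2) for TRAV7-3, 3.49% (Hashtag5) to 6.78% (Hashtag4) for TRAJ23, 0.889% (Hashtag2) to 3.93% (Hashtag8) for TRAJ27, and 2.75% (Hashtag4) to 5.56% (Hashtag8) for TRAJ31. A hashtag sample may hold 1 or several animals, which the sources do not state.

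CD8 and CD4 clonotypes differed in V gene use. Of 59 TRAV genes tested within hashtag samples, 8 had a higher share in CD8 clonotypes and 7 a lower one, which is 13.6% and 11.9% of those tested, or 25.4% in either direction (edgeR quasi-likelihood test with the hashtag as a block, Benjamini-Hochberg adjusted p under 0.05 over all 101 V and J genes). TRAV12D-3 stood at 3.01%, 5.94% and 7.36% (lowest, median and highest of 8 hashtag samples) of CD8 clonotypes, against 0.541%, 0.973% and 2.66% of CD4 clonotypes. The ranges did not overlap, and the log2 ratio of CD8 over CD4 was 2.15 ± 0.27 (SE; edgeR adjusted p = 7.69e-11). TRAV12-2, a related gene nearer the J cluster, had a median of 4.71% in CD8 and 1.77% in CD4 clonotypes, with a log2 ratio of 1.35 ± 0.27 (edgeR adjusted p = 4.05e-05), higher in CD8 in 8 of 8 hashtag samples. Clonotypes with cells of both lineages, 19 in all, counted in each.

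All 3 TRAV16 genes tested were higher in CD8 clonotypes, and their log2 ratios stayed above 0 under both other scalings tried. TRAV16 itself lost its call without Hashtag7 and Hashtag8 (log2 ratio 0.95, edgeR adjusted p = 0.155). TRAV16N had 2.50%, 3.88% and 5.87% of CD8 clonotypes and 0.532%, 1.76% and 3.08% of CD4 clonotypes, a log2 ratio of 1.26 ± 0.27 (edgeR adjusted p = 0.000185). TRAV16 had a log2 ratio of 1.31 ± 0.40 (edgeR adjusted p = 0.0107), and TRAV16D-DV11, with 36 CD8 and 3 CD4 clonotypes, one of 2.80 ± 0.66 (edgeR adjusted p = 0.000424). As a family, TRAV16 made up 6.23% to 11.4% of CD8 clonotypes and 1.6% to 4.39% of CD4 clonotypes, with no overlap. TRAV9D-3 (log2 ratio 1.32), TRAV3D-3 (0.87) and TRAV13-1 (0.75) were also higher in CD8 clonotypes, though 1 clonotype of TRAV13-1 reached 34 cells and its call was kept in 12 of 24 alternatives.

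In the other direction, TRAV4D-4 had 0.413%, 0.763% and 2.39% of CD8 clonotypes and 1.32%, 4.20% and 5.35% of CD4 clonotypes. It was lower in CD8 in 8 of 8 hashtag samples, with a log2 ratio of -1.92 ± 0.35 (edgeR adjusted p = 3.01e-06). TRAV4-4-DV10, the copy without a D or N, fell by 0.95 ± 0.33 on the log2 scale (edgeR adjusted p = 0.0261). The other 2 TRAV4 genes tested did not pass, with log2 ratios of -0.90 (TRAV4-3) and -0.81 (TRAV4D-3), and all 4 ratios stayed below 0 under both other scalings. TRAV21-DV12 (-1.16), TRAV7-4 (-1.15), TRAV6N-7 (-1.10), TRAV6-7-DV9 (-0.95) and TRAV7D-2 (-0.75) fell as well. Of the 6 DV genes tested, 3 were called lower and 1 higher in CD8 clonotypes, beside 11.9% lower and 13.6% higher of all 59 TRAV genes tested. Their median log2 ratio was -0.95, beside -0.10 over all TRAV genes tested. The 3 lower DV calls were not made under either other scaling. Copies without DV in the name went the same way, with TRAV4D-4 and TRAV6N-7 lower, and TRAV16 and TRAV16N higher like TRAV16D-DV11. Whether use followed the DV name was not tested.

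J genes also differed by lineage, in 7 of 42 tested or 16.7%, with 3 higher in CD8 clonotypes (7.14%) and 4 lower (9.52%). TRAJ22 held 6.63%, 8.36% and 11.6% of CD8 clonotypes and 2.66%, 3.76% and 5.0% of CD4 clonotypes, ranges that did not overlap, with a log2 ratio of 1.14 ± 0.16 (edgeR adjusted p = 1.20e-06). TRAJ31 went the other way with 1.73%, 3.16% and 3.99% of CD8 clonotypes and 4.38%, 6.98% and 8.11% of CD4 clonotypes, again without overlap (log2 ratio -1.17 ± 0.21, edgeR adjusted p = 3.01e-06). TRAJ45 (log2 ratio 1.40 ± 0.44) and TRAJ26 (0.84 ± 0.23) were higher in CD8 clonotypes. TRAJ37 (-1.0 ± 0.25), TRAJ17 (-1.02 ± 0.36) and TRAJ27 (-0.81 ± 0.31) were lower. TRAJ23, next to TRAJ22 on the chromosome and second in use, had a log2 ratio of 0.18 ± 0.20 (edgeR adjusted p = 0.585).

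**Figure D2:**
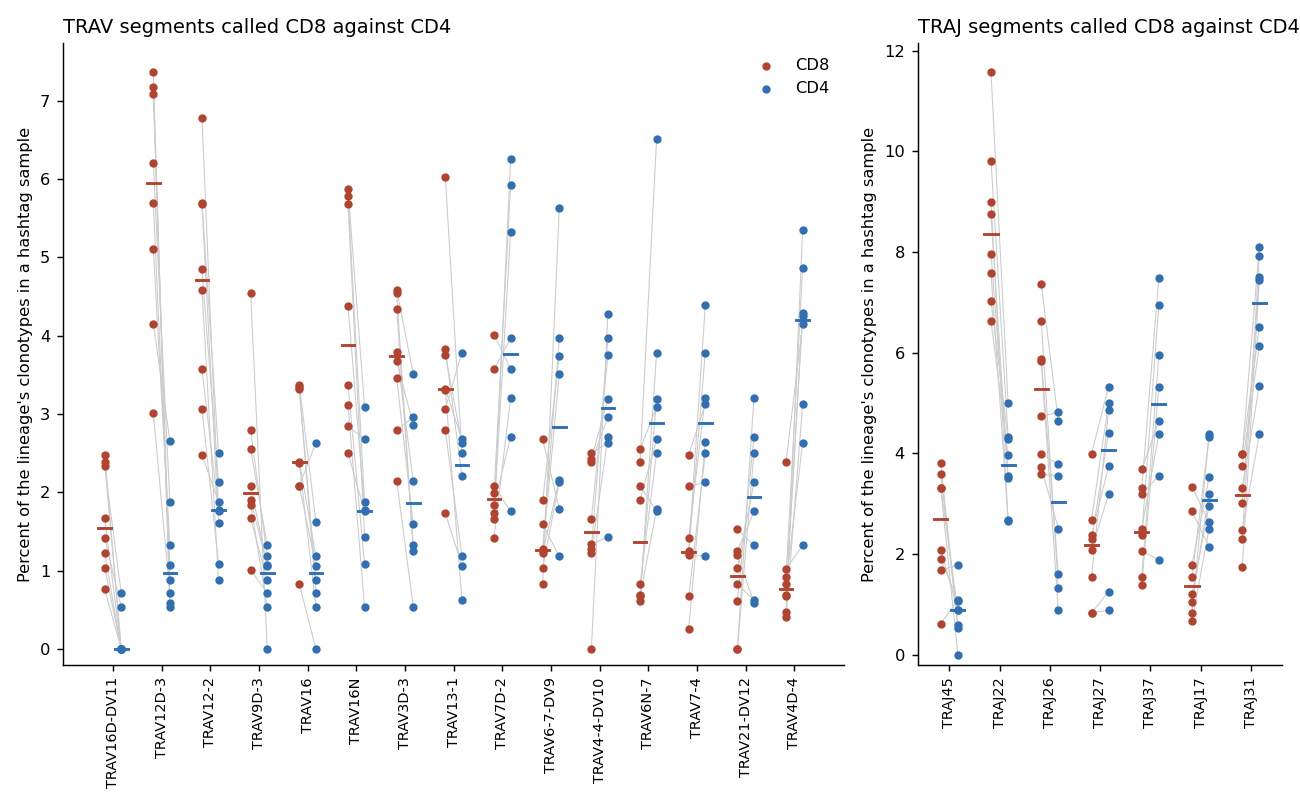
Share of each lineage's clonotypes, in percent, that used the 15 TRAV and 7 TRAJ genes called CD8 against CD4, in CD8 (red, left of each pair) and CD4 (blue, right) clonotypes of 8 hashtag samples. Grey lines join the 2 lineages of a hashtag sample and bars mark medians; TRAV16D-DV11, TRAV12D-3, TRAJ22 and TRAJ31 show no overlap.

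Of the 22 calls, 8 were made under every alternative in which the gene was tested by its own name: TRAV12D-3, TRAV12-2, TRAV16N, TRAV16D-DV11, TRAV4D-4, TRAJ22, TRAJ31 and TRAJ37. Genes with a D or N in the name have no value of their own once copies are counted as 1 gene. The 11 higher and 11 lower calls became 12 and 3 with TMM scaling, which moved the median log2 ratio of all tested genes to 0.12 from -0.08, and 8 and 3 with DESeq2. No called gene changed sign under either. Of the lower calls, those of TRAV4D-4, TRAJ31 and TRAJ37 were made with both TMM and DESeq2, and the others with neither. TRAV6N-7 also lost its call with the strict lineage call, at least 2 UMIs of 1 lineage and none of the other (log2 ratio -0.78, edgeR adjusted p = 0.308), and with contigs of at least 3 UMIs. Without Hashtag7 there were 13 calls, and without Hashtag4 there were 14. Leaving out 1 hashtag sample at a time ended 12 of the 22 calls at least once, all 12 with the sign kept. The calls of TRAJ26 (log2 ratio 0.64) and TRAV7-4 (-0.96) were lost without Hashtag7, and that of TRAV9D-3 (0.98) without Hashtag4. TRAV3D-3 was not called without Hashtag4 (0.77) or Hashtag7 (0.73), nor TRAJ45 without Hashtag4 (1.20), Hashtag5 (1.22) or Hashtag7 (1.31), nor TRAV7D-2 without Hashtag3 (-0.63), Hashtag4 (-0.60) or Hashtag5 (-0.62), nor TRAV4-4-DV10 without Hashtag4 (-0.92), Hashtag6 (-0.73) or Hashtag7 (-0.82). TRAV13-1, TRAV21-DV12, TRAV6-7-DV9, TRAJ17 and TRAJ27 each lost the call without any 1 of 4 to 6 hashtag samples. Near-identical V copies are uncertain by name, since 25 of 51 pairs of used copies share at least 98% of their last 200 bases. With D and N copies counted as 1 gene, 6 of 34 V genes were higher in CD8 clonotypes and 8 were lower, led by TRAV16 (log2 ratio 1.51 ± 0.17, edgeR adjusted p = 1.88e-10) and TRAV4-4 (-1.42 ± 0.23, edgeR adjusted p = 1.35e-07). TRAV12D-3 and its copy TRAV12-3 share 98% of those bases, and TRAV12-3 by name had a log2 ratio of -0.69 ± 0.43 (edgeR adjusted p = 0.255). Counted as 1 gene they had a log2 ratio of 1.13 ± 0.20 (edgeR adjusted p = 1.17e-05), against 2.15 for TRAV12D-3 alone. In the merged count the TRAV14-3 genes were lower in CD8 clonotypes (-0.83 ± 0.23, edgeR adjusted p = 0.00298), although none of the 7 TRAV14 genes tested by name passed.

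Unproductive chains from cells called CD8 or CD4, which make no receptor, were counted for the called genes as well. The 8 TRAV genes called higher made up 28.0% of productive CD8 clonotypes and 10.9% of productive CD4 clonotypes. In unproductive chains the same genes made up 16.6% (exact 95% interval 14 to 19.5%) in CD8 cells and 16.9% (13.6 to 20.6%) in CD4 cells. The 7 TRAV genes called lower had 9.96% of productive CD8 and 21.7% of productive CD4 clonotypes, against 12.4% (10.1 to 15%) and 13.7% (10.7 to 17.1%) in unproductive chains of CD8 and of CD4 cells. The 3 J genes called higher had 16.3% of productive CD8 and 7.75% of productive CD4 clonotypes. Their unproductive shares were 8.65% (6.71 to 10.9%) in CD8 and 7.38% (5.20 to 10.1%) in CD4 cells. The 4 J genes called lower had 9.24% of productive CD8 and 19.0% of productive CD4 clonotypes. Their unproductive shares were 15.4% (12.8 to 18.2%) in CD8 and 19.8% (16.3 to 23.7%) in CD4 cells, lower in CD8 as in productive chains. These lists were chosen on the productive chains of these cells, so the shares are given without a test, and the unproductive ones rest on 728 and 474 chains.

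Mean position along the locus did not pass the test between lineages. With TRAV genes numbered from 1 at the end far from the J cluster, the mean V order was 69.4 in CD8 and 72.3 in CD4 clonotypes (mean difference -2.92 ± 4.66, SD over 8 hashtag samples; two-sided exact sign-flip permutation p = 0.109). The mean J order was 32.3 in CD8 and 31.4 in CD4 clonotypes (exact permutation p = 0.188), counted from 1 at the V side. The mean CDR3 was 40.8 bases long in CD8 and 40.4 in CD4 clonotypes, 0.359 ± 0.405 bases longer (SD), in 7 of 8 hashtag samples (exact permutation p = 0.0156, 0.0391 adjusted over 5 comparisons). Without Hashtag3, the sample with the longest CD8 excess, it was 0.238 bases (exact permutation p = 0.0312). The length difference was 0.0835 bases with at least 2 UMIs of the called lineage and none of the other (exact permutation p = 0.789). The smallest p that 8 hashtag samples allow is 0.00781, and since nothing states that they are separate animals, these p-values measure the spread between hashtag samples.

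Productive chains differed from the unproductive ones in 19 of 75 TRAV genes (25.3%, 9 higher or 12% and 10 lower or 13.3%) and 9 of 43 TRAJ genes (20.9%, 4 higher or 9.3% and 5 lower or 11.6%). Unproductive contigs are a mixed class here: of 1555 in the hashtag samples, 817 had no CDR3 named and 738 had one, and 1529 were full length. Against unproductive chains, TRAV16 (log2 ratio 2.01 ± 0.46), TRAV14N-3 (1.84 ± 0.41), TRAV14D-2 (1.46 ± 0.49), TRAV16N (1.39 ± 0.31) and TRAV14-2 (1.35 ± 0.46) were the highest. TRAV16D-DV11, which shares 99.5% of the 200 bases compared with TRAV16N, had 0.07 ± 0.49 (edgeR adjusted p = 0.952). Copy names are uncertain in this comparison too. With D and N copies counted as 1 gene there were 22 calls, of which 13 were shared by name with the 28 made here. TRAV14N-3 had 1.33%, 2.09% and 3.49% of productive clonotypes and 0%, 0.610% and 1.01% of unproductive chains, without overlap (edgeR adjusted p = 0.000346). In the TRAV14 family 4 of 7 genes tested were called higher and none was called lower in productive chains. TRAV14-1 had a log2 ratio below 0, at -0.41 ± 0.49 (edgeR adjusted p = 0.578). Of the 4 calls, those of TRAV14-2, TRAV14D-1 and TRAV14D-2 were each lost at least once when 1 hashtag sample was left out. TRAV12D-3, the V gene used most, was higher too (1.28 ± 0.28, edgeR adjusted p = 0.000346). With contigs of at least 3 UMIs, 3 of these calls were lost with the sign kept. They were TRAV12D-3 (1.11, edgeR adjusted p = 0.0923), TRAV16 (2.08, edgeR adjusted p = 0.0858) and TRAV16N (1.70, edgeR adjusted p = 0.0799).

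The V genes with the lowest ratios were little used. TRAV13D-3 (log2 ratio -3.41 ± 0.59), TRAV13N-3 (-2.41 ± 0.56), TRAV13D-4 (-2.09 ± 0.61), TRAV13N-4 (-1.85 ± 0.39) and TRAV9D-2 (-1.51 ± 0.53) were lower in productive chains. TRAV13D-3 was found in 5 productive clonotypes and 21 unproductive chains of the hashtag samples (edgeR adjusted p = 8.48e-06), and 16 of those 21 had no CDR3 named. Some genes in wider use were lower too. TRAV12D-2 had 82 productive clonotypes and 60 unproductive chains, at 0.792%, 1.49% and 2.44% of productive clonotypes and 2.53%, 3.48% and 8.09% of unproductive chains, without overlap (-1.20 ± 0.25, edgeR adjusted p = 0.000203). TRAV3D-3, which was higher in CD8 than in CD4 clonotypes, had 144 productive clonotypes and 80 unproductive chains (-0.82 ± 0.21, edgeR adjusted p = 0.00141). With unproductive chains limited to those with no CDR3 named, neither passed, at log2 ratios of -0.75 for TRAV12D-2 (edgeR adjusted p = 0.145) and -0.70 for TRAV3D-3 (edgeR adjusted p = 0.0582), and TRAV3D-3 also lost its call with DESeq2 and without Hashtag7 and Hashtag8. TRAV1, the V gene of the mucosal-associated invariant chain, had 27 productive clonotypes and 23 unproductive chains (-1.39 ± 0.46, edgeR adjusted p = 0.0191).

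Among J genes, TRAJ49 (log2 ratio 1.13 ± 0.28), TRAJ30 (1.01 ± 0.26), TRAJ22 (0.81 ± 0.27) and TRAJ26 (0.65 ± 0.25) were higher in productive chains. TRAJ35 (-1.51 ± 0.46), TRAJ32 (-1.13 ± 0.21), TRAJ16 (-1.01 ± 0.37), TRAJ34 (-0.79 ± 0.22) and TRAJ27 (-0.63 ± 0.22) were lower. TRAJ32 had 1.13%, 2.26% and 3.49% of productive clonotypes and 3.29%, 5.67% and 7.05% of unproductive chains, lower in 8 of 8 hashtag samples (edgeR adjusted p = 1.46e-05). With unproductive contigs limited to those without a CDR3, TRAJ16 turned to a log2 ratio of 1.47, and 31 of its 34 unproductive chains had a CDR3 named. The J genes of productive chains lay on average nearer the V side, at a mean order of 32.1 against 33.3 in unproductive chains, in 8 of 8 hashtag samples (difference -1.22 ± 0.81, SD; exact permutation p = 0.00781, 0.0391 adjusted over 5 comparisons). That difference was -0.164 with contigs of at least 3 UMIs (exact permutation p = 0.766) and -0.579 without a CDR3 in the unproductive ones (exact permutation p = 0.281). Leaving out 1 hashtag sample at a time ended 12 of these 28 calls at least once: those of TRAV1, TRAV14-2, TRAV14D-1, TRAV14D-2, TRAV4-4-DV10, TRAV8N-2, TRAV9D-2, TRAJ16, TRAJ22, TRAJ26, TRAJ27 and TRAJ35. The mean V order was 70.9 in productive and 69.6 in unproductive chains (difference 1.30 ± 1.27, SD; exact permutation p = 0.0391, 0.0651 adjusted).

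**Figure D3:**
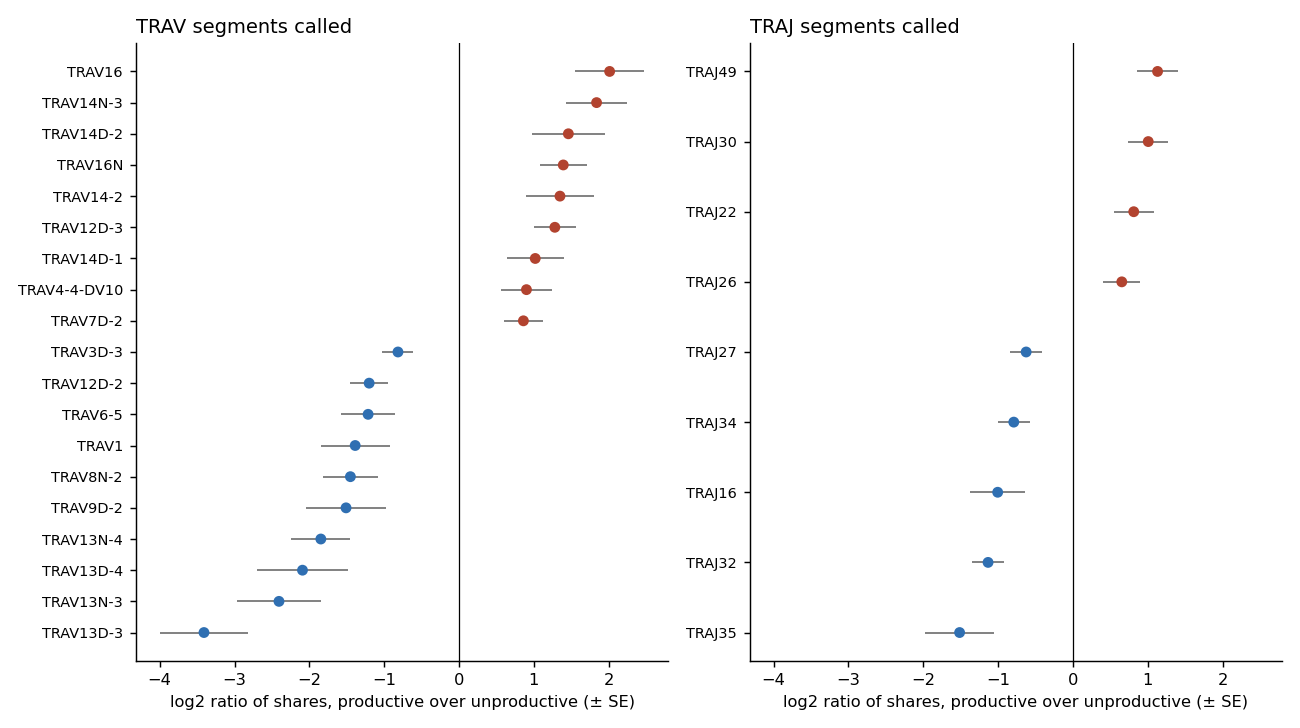
Log2 ratio of clonotype share in productive over unproductive chains (points, from edgeR, with SE bars derived from its F statistic) for the 19 TRAV and 9 TRAJ genes called. Positive values (red) mean a higher share in productive chains; TRAV16 stands highest at 2.01 and TRAV13D-3 lowest at -3.41.

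V and J genes were paired by their position along the locus. Over 5931 clonotypes the V order and the J order had a Spearman rho of -0.486, given as a description since clonotypes share 1 library. V genes near the J cluster were joined more often to J genes near the V cluster than distant V genes were, and less often to J genes far from it. The relation was alike in each of the 8 hashtag samples, with rho of -0.515 to -0.445, and in CD8 (-0.549 to -0.402) and CD4 (-0.558 to -0.349) clonotypes of each. Unproductive chains had a rho of -0.463. The distance between the joined genes in the unrearranged chromosome ran between 281 and 1781 kb, with a median of 804 kb.

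The relation was steepest among V genes near the J cluster. The TRAV genes were divided by order into 42 distal, 43 middle and 43 proximal genes, and the TRAJ genes into 20 V-proximal, 20 middle and 20 V-distal genes. V-proximal J genes were joined in 10.2% (exact 95% interval 8.88 to 11.7%) of clonotypes with a distal V gene, 11% (9.28 to 12.9%) with a middle V gene and 40.2% (38.3 to 42.0%) with a proximal V gene. V-distal J genes took 43.2%, 40.8% and 13.9% in the same order, while the middle J genes took 46.6%, 48.2% and 45.9%. In no hashtag sample did the V-proximal share with proximal V genes (34.1 to 44.7%) overlap the share with distal ones (6.04 to 14.9%). Within the proximal V genes rho was -0.490, within the middle ones -0.133 and within the distal ones 0.0665. Positions follow the V gene name, and many distal and middle V genes are D or N copies whose names are uncertain. For example, TRAV7D-2 (order 9) and TRAV7-2 (order 82) are identical over the 200 bases compared. How misnamed copies bear on these values was not tested.

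The plot of J order by V order shows the turn. Across the distal and middle V genes the median J order lay mostly near 40, for example 40 for TRAV12D-3 and 38 for TRAV16N. Through the proximal V genes it was 36 for TRAV7-4, 31 for TRAV6-6, 28 for TRAV12-2, 22 for TRAV4-4-DV10, 13 for TRAV16, and 9 for both TRAV19 and TRAV21-DV12. V-proximal J genes made up 77.9% of TRAV16, 90% of TRAV19 and 88.8% of TRAV21-DV12 clonotypes, against 4.76% of TRAV12D-3 clonotypes. TRAV11 left the line with a median order of 44, that of TRAJ18. Among the 12 V genes that have no D or N counterpart (382 clonotypes) rho was -0.744. These genes lie only at the ends of the TRAV region, at orders 1 to 8 and 120 to 126. Their rho is a contrast of the ends and cannot be set beside the -0.486 over all clonotypes.

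**Figure D4:**
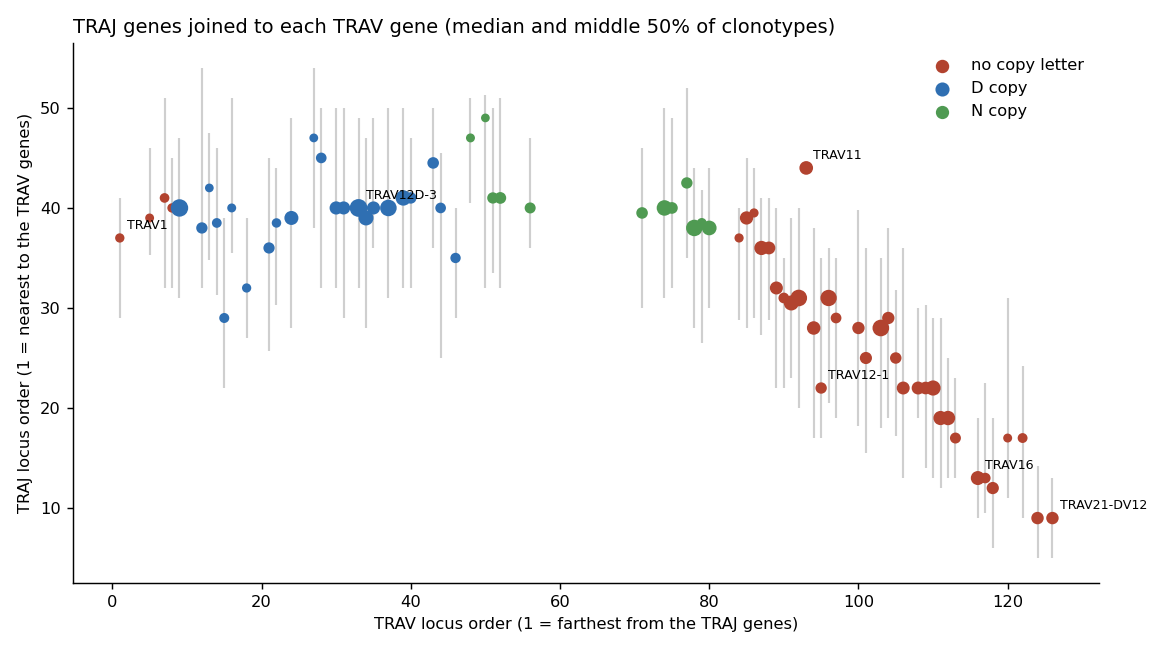
Median TRAJ locus order (points, sized by clonotypes) and middle 50% (grey lines) of the J genes joined to each of 72 TRAV genes with at least 20 clonotypes, by TRAV locus order and coloured by copy letter. The median J order lies near 40 for most distal and middle V genes, reaches 9 at TRAV21-DV12, and is 44 at TRAV11.

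Of 3827 possible pairs of used V and J genes, 1897 (49.6%) were seen, 721 of them in 1 clonotype and 69 in at least 10. Among the 69 pairs with at least 10 clonotypes, TRAV11 with TRAJ18 stood first, with 90 clonotypes where independent joining of the observed V and J shares gives 3.08 (29.2 times). TRAV12-1 with TRAJ45 had 12 clonotypes (11.7 times), 9 of them CD8 and none CD4. TRAV21-DV12 with TRAJ57 (21 clonotypes, 11.1 times) and TRAV19 with TRAJ57 (20 clonotypes, 10.6 times) followed, and both join genes at the inner ends of the clusters. TRAV21-DV12 with TRAJ58 (10 clonotypes, 9.50 times) had no CD8 and 7 CD4 clonotypes. TRAV14-2 with TRAJ53, TRAV19 with TRAJ56 and TRAV14-3 with TRAJ56 had 12, 12 and 11 clonotypes, at 7.68, 6.90 and 6.65 times. For TRAV14-2 with TRAJ53, 6 clonotypes shared 1 CDR3 and had 3 beta chains. Whether these are 1 join counted more than once was not tested. In 7 of these 8 pairs the V gene was proximal and the J gene V-proximal, and the exception was TRAV11 with TRAJ18.

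A T cell can carry 2 productive alpha chains, and 983 of the 7428 cells (13.2%) had 2 such contigs. Over 913 clonotypes with 2 chains, the J orders of the chains had a Spearman rho of 0.371 and their V orders one of 0.137, given without a test. The median gap between the 2 J genes was 9 positions.

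The invariant chain of TRAV11 and TRAJ18 was found in 101 cells (1.36%, exact 95% interval 1.11 to 1.65%) of 90 clonotypes. It made up 85.7% of TRAV11 and 51.7% of TRAJ18 clonotypes, and TRAV11D, the copy of TRAV11, was in no clonotype (0 of 5931, which allows a share of up to 0.0506%). That limit holds for chains named TRAV11D, and whether its reads were named TRAV11 was not tested. With or without a hashtag, 4 of 3278 CD8 cells (0.122%) had the invariant chain, against 12 of 1893 CD4 cells (0.634%). Of 1887 cells in the gene matrix with no lineage call, 81 had it (4.29%, 3.42 to 5.31%). Zbtb16, which encodes the innate T cell factor PLZF, had a UMI in 39.2% of the 97 such cells in the gene matrix, against 0.589% of the other cells. Klrb1c, which encodes NK1.1, had one in 17.5% against 1.36%. Depth was near equal at medians of 3797 and 3591 gene UMIs. The share by hashtag sample ran from 2 of 1227 cells in Hashtag7 (0.163%, 0.0197 to 0.588%) through a median of 1.08% to 32 of 597 in Hashtag4 (5.36%, 3.69 to 7.48%). Over all 8 hashtag samples it was 82 of 5933 cells (1.38%), and without Hashtag4 it was 50 of 5336 (0.937%, 0.696 to 1.23%).

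**Figure D5:**
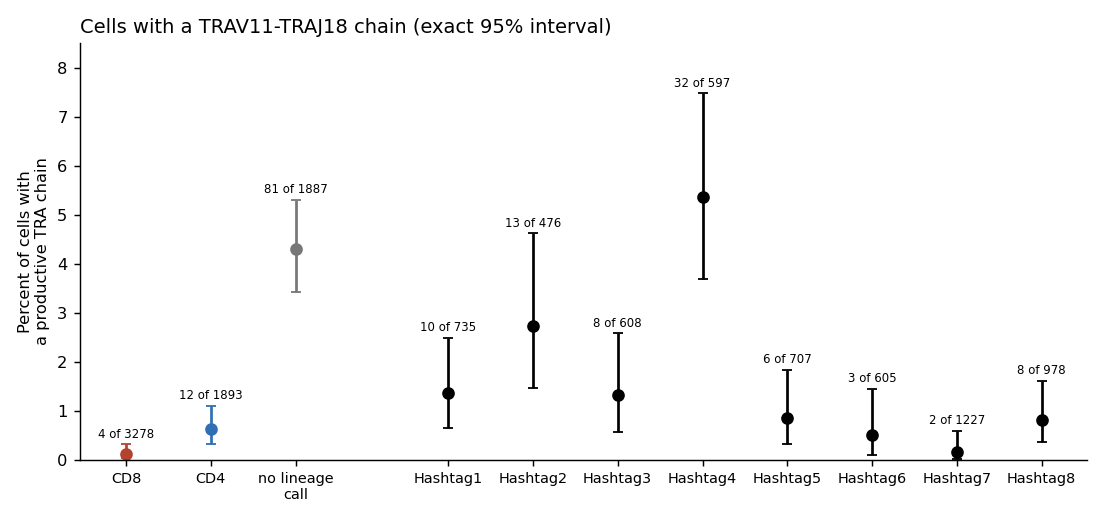
Percent of cells with a productive alpha chain that used TRAV11 with TRAJ18 (points, exact 95% intervals), in CD8, CD4 and uncalled cells of the gene matrix and in each hashtag sample, with the counts above. Hashtag4 at 5.36% and uncalled cells at 4.29% lie highest.

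Nearly all CDR3 sequences of this chain were 45 bases long and 4 forms made up most of them. The forms differ at position 12 of the CDR3, counted from 1 at its 5′ end and shown in capitals.
Form 1: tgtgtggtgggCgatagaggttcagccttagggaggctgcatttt
Form 2: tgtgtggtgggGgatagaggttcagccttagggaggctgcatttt
Form 3: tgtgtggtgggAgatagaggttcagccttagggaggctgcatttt
Form 4: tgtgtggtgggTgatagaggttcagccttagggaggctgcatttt
They were found in 43, 21, 14 and 6 clonotypes, in 7, 7, 5 and 4 hashtag samples. The 43 clonotypes of form 1 had 43 different beta chains. Clonotypes that share an alpha chain are told apart by their other chains. A count of beta chains near that of clonotypes, here and below, therefore follows largely from the grouping. Form 1 is covered by germline TRAV11 and TRAJ18 bases alone, as is form 3, while forms 2 and 4 hold 1 base found in neither. Of the 90 clonotypes, 63.3% had no base outside the germline, against 16.4% of all clonotypes, whose CDR3 had a median of 42 bases and 3 non-germline bases.

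One other CDR3 was shared as widely, in 19 clonotypes and 23 cells of 7 hashtag samples with 18 different beta chains.
TRAV14 family with TRAJ22: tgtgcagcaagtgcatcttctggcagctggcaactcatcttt
It is fully germline, with 13 bases of V and 29 of J. Cells of 15 CD8 clonotypes and 1 CD4 clonotype carried it. Its V gene was named in 7 ways, 6 of them TRAV14 genes, so the name of the copy is not settled. The 8 most shared sequences also held those of TRAV14-3 with TRAJ57 (7 clonotypes, 5 beta chains) and TRAV13-1 with TRAJ26 (7 clonotypes, all CD8, with 3 beta chains in 21 cells). TRAV14-2 with TRAJ53 (6 clonotypes, 3 beta chains) and TRAV4D-4 with TRAJ12 (6 clonotypes, 3 beta chains) were among them too, the last tied with form 4 and others.

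The chain of TRAV1 and TRAJ33 was rare, with 7 cells in 6 clonotypes (0.0942%, 0.0379 to 0.194%) of 4 hashtag samples. All 6 clonotypes had 1 and the same CDR3 and 6 different beta chains.
TRAV1 with TRAJ33: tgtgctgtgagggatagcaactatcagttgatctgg
None was among 1893 CD4 cells, which allows a share of up to 0.158%, 1 was a CD8 cell and 5 had no lineage call. Zbtb16 had a UMI in 3 of the 6 in the gene matrix. TRAV1 itself was joined to TRAJ33 in 21.4% of its 28 clonotypes.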

How the data were processed

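The deposited files hold counts, per the file headers: UMIs and reads per receptor contig, cells per clonotype with the proportion as a fraction of all, which the authors deposited and which was not used in a test, and UMIs per gene, hashtag and cell barcode. They came from Cell Ranger 3.1.0 with mm10 (GRCm38), per the submitters' processing notes, and clonotype names, productivity and CDR3 calls were taken as deposited. No source used here names the receptor reference.

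The members and lists were chosen with earlier results of these data known. Ties for the most UMIs (252 barcodes) went to the contig with more reads. A hashtag was called at 10 or more UMIs and at least 3 times the next. A clonotype counted once per hashtag sample and lineage, under its commonest V, J and CDR3. Genes with at least 20 clonotypes were tested with edgeR 4.0.16 (R 4.3.3; quasi-likelihood, hashtag as a block, no further scaling) and p-values were adjusted over V and J genes together; DESeq2 1.42.0 was an alternative. On simulated counts with changes of 1.5 on the log2 scale, edgeR called 9 of 12 changed V genes and 7 of 8 changed J genes of the CD8 and CD4 layout with no false call, and 12 of 15 and 7 of 9 of the productive layout with 2 false calls among J genes. The simulation used 1 fixed spread between samples and adjusted V and J genes apart. Most ratios called between lineages were smaller than 1.5, and recovery of such changes was not simulated. The SE given with a log2 ratio was derived from the edgeR test, as the size of the ratio over the square root of the F statistic. Mean positions were compared by exact sign-flip permutation over hashtag samples with at least 30 clonotypes a side. Intervals are exact Clopper-Pearson at 95% and, like the limit of 3 counts at a count of 0, cover counting error only. Gene positions and germline bases come from GENCODE M21; all used names matched. In 4045 cells with at least 2 UMIs of 1 TRAV gene in the gene matrix, its name was that of the contig in 82.8%, and in 84.7% with copies as 1. Doublets were not called; leaving out barcodes with signs of more than 1 cell was an alternative. Python 3.11.15, SciPy 1.17.1, pandas 2.3.3 and Matplotlib 3.10.9 were used.

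Named genes were, for V and for J, the 8 most used, up to 8 called per direction between lineages and 5 between productive and unproductive chains, the 4 highest in cell over clonotype share, the 4 widest over hashtag samples, the 8 pairs with the highest observed over expected count among pairs with at least 10 clonotypes, the 8 most shared CDR3s, and TRAV11, TRAV11D, TRAJ18, TRAV1 and TRAJ33. TRAV12D-2, TRAV12-1, TRAJ23, TRAV4-3, TRAV4D-3, TRAV14-1 and TRAV6D-7 and further values beside them were named after their values were seen. The shares of called genes in unproductive chains were also computed after seeing the data.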

Additional observations from a re-analysis of the deposited data

Results flagged for a closer look

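A hashtag sample far from the other 7 was looked for in 27 groups of 8 values, and 2 were found, about what chance gives at 1 in 20 groups. The share of TRAV9D-3 was 4.55 percentage points higher in CD8 than in CD4 clonotypes of Hashtag4, while the next highest difference was 1.61 points. Without Hashtag4, TRAV9D-3 had no call. The mean CDR3 of CD8 clonotypes was 1.20 bases longer than that of CD4 clonotypes in Hashtag3, and 0.555 bases in the next sample.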

How the results depend on the processing

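Between CD8 and CD4 clonotypes, where 8 TRAV genes were higher and 7 lower and 3 TRAJ genes higher and 4 lower, the lower TRAV calls were 4 with the strict lineage call, 3 with contigs of at least 3 UMIs, 4 without Hashtag7 and Hashtag8, and 1 each with TMM and DESeq2. The lower TRAJ calls were 2 under those 5 alternatives and with 1 productive TRA only, and the higher TRAJ calls were 1 with DESeq2. Leaving out 1 hashtag sample at a time gave 5 to 8 and 4 to 8 TRAV calls and 1 to 4 and 2 to 5 TRAJ calls, higher and lower. Without Hashtag4 the higher and lower TRAV calls were 5 and 4, and without Hashtag7 the lower TRAV calls were 4 and the higher TRAJ calls 1. Between productive and unproductive chains, where 9 TRAV genes were higher and 10 lower and 4 TRAJ genes higher and 5 lower, the calls were 5, 6, 2 and 2 with contigs of at least 3 UMIs, and 4 higher and 4 lower TRAV and 2 lower TRAJ calls without Hashtag7 and Hashtag8. Leaving out 1 hashtag sample gave 6 to 10, 7 to 10, 2 to 4 and 3 to 6. Limiting the unproductive chains to those with no CDR3 left 22 calls, 16 of them shared, and reversed TRAJ16 to 1.47. The fit without the replicate block gave 24 calls between lineages, 21 of them shared, and 30 between productive and unproductive chains, 28 of them shared. The labels give no replicate numbers, so the hashtag sample is the pairing. DESeq2 gave 11 and 23 calls in all.

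The CDR3 length difference was 0.224 bases counting cells (exact permutation p = 0.188), 0.324 at the 5-fold hashtag call (p = 0.0547, exact), 0.0835 with the strict lineage call, 0.207 with at least 3 UMIs (exact p = 0.234) and 0.460 without Hashtag7 and Hashtag8 (exact p = 0.0625). The J order difference between lineages was 0.449 to 1.44 over single left-out samples, the last without Hashtag3 (exact p = 0.0469). The V order difference between productive and unproductive chains was 1.19 counting cells, 1.01 without possible doublets, 0.758 with at least 3 UMIs, 1.05 without Hashtag7 and Hashtag8, and 1.38 with no CDR3 in the unproductive chains, each with an exact p above 0.05, and 1.14 to 1.59 over left-out samples. The matching J order difference was -0.164 with at least 3 UMIs and -0.579 with no CDR3. The position correlation was -0.744 among V genes with no D or N copy, all of them at the ends of the TRAV region. TRAV11 with TRAJ18 was in 1.05% of cells with contigs of at least 3 UMIs. The cause was not tested. Depth limits the tests to genes with 20 clonotypes, and a hashtag sample held as few as 114 CD4 clonotypes.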

Other observations

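Use was also summed by V family. The TRAV12 family made up 12.0 to 20.3% of CD8 clonotypes and 5.95 to 9.64% of CD4 clonotypes over the 8 hashtag samples, and the TRAV3 family 5.52 to 8.33% and 2.20 to 4.86%, both without overlap. The TRAV7 family was lower in CD8 clonotypes in 8 of 8 hashtag samples, at 9.48 to 14.2% against 13.9 to 19.1% of CD4 clonotypes. Single genes differed within families, with log2 ratios above 0 in 4 of 6 TRAV12 and 3 of 10 TRAV7 genes tested. Of the 10 TRAV7 genes, 2 were called lower. The TRAV4 family stood at 1.42 to 6.25% of CD8 and 6.14 to 13.9% of CD4 clonotypes. Families were summed after the genes had been seen, so these shares carry no test.

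The median CDR3 length by J gene included 36 bases for TRAJ33 and 48 for TRAJ2. Without the TRAV11 and TRAJ18 chain, 22 of 22 lineage calls were made again. That chain had 4 CD8 and 12 CD4 clonotypes and neither gene was among the calls, so its removal could change little.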
